A study of Brassica napus with 3 samples.

Results

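Runs of closely spaced LEAFY binding peaks were described in rapeseed (Brassica napus). A run was a chain of at least 3 peaks on a chromosome in which each peak started no more than 1000 bp past the end of the peak before it. The members were chosen by the positions of the called peaks alone, and 2792 of the 62314 peaks on chromosomes (4.48%) lay in 793 such runs. Another 9388 peaks (15.1%) formed 4694 pairs, and 50134 (80.5%) were single, with no neighbour within that distance. The 635 peaks on unplaced scaffolds did not enter the rule, and the whole list held 62949 peaks.

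Binding was measured by DAP-seq (DNA affinity purification sequencing): purified genomic DNA, stripped of chromatin and cut into fragments, is offered to a tagged protein in a tube, and the fragments it holds are sequenced. The series held 2 DAP libraries of BnaC3.LFY, the copy of LEAFY on chromosome C03, and 1 input library. The DNA came from tissue that the labels call both shoot apices and inflorescence, and no genotype, strain, treatment or age of the plants is given there. The authors' peak list names no sample, so every value below belongs to the peak list as a whole, without an error between libraries, and spread is given between chromosomes. DNA without chromatin limits the assay to what the sequence and its own DNA modifications allow, so a run here is not evidence of occupancy in the plant.

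LEAFY, a transcription factor found only in plants, turns lateral primordia of the shoot apex into flowers. In Arabidopsis it binds DNA as a dimer through a carboxy-terminal helix-turn-helix domain and activates floral homeotic genes, and its amino-terminal SAM domain lets the protein form larger oligomers and reach regions rich in weaker sites. Rapeseed is an allotetraploid with an A subgenome related to Brassica rapa and a C subgenome related to Brassica oleracea. Positions are given in the Westar v0 build, counted from 1. The genes beside the runs and the DNA sequence within them were not analysed here, since the gene table at hand describes another assembly.

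Most runs were short. Of the 793 runs, 558 held 3 peaks, 142 held 4, 54 held 5, and 39 held 6 or more, up to 12. Their extent from the first to the last base ranged from 1248 to 14766 bp, with a median of 2715 bp and quartiles of 2216 and 3622 bp. Runs of 3 peaks extended over 2426 bp at the median, runs of 4 over 3655 bp and runs of 5 or more over 5167 bp. The median run was covered by peaks over 57.5% of its extent, the extremes being 30.1 and 91.4%. All runs together took up 2.50 Mb, or 0.268% of the 933 Mb chromosome span, where the span of a chromosome is the end of its last peak.

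Inside the runs, the 1999 gaps between neighbouring peaks had a median of 460 bp (quartiles 286 and 690 bp), and the shortest was 7 bp. The gaps within pairs had a median of 532 bp. The centres of neighbouring peaks in a run lay 1018 bp apart at the median, with quartiles of 784 and 1258 bp. The joining distance did not fall at a break in the data: 648 neighbours on the chromosomes lay over 900 and up to 1000 bp apart, just inside the limit, and 594 lay over 1000 and up to 1100 bp apart, just outside it. The downstream peaks of these neighbours had median folds of 6.26 and 6.25. Fold here is the authors' fold enrichment of a peak over the local background of the peak caller.

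Chromosomes A05, A06 and A09 carried 394 of the 793 runs (49.7%) on 16.9% of the chromosome span and with 18.1% of all chromosome peaks. A09 held 223 runs, or 3.29 per Mb, and 16.4% of its peaks lay in runs. A06 held 97 runs (2.08 per Mb, 11.02% of its peaks) and A05 held 74 (1.70 per Mb, 10.6% of its peaks). On the other 7 A chromosomes the density of runs was between 0.188 per Mb on A10, with 5 runs, and 0.853 per Mb on A01, with 29 runs, and the median was 0.465. The 9 C chromosomes lay close together, from 0.411 per Mb on C02 over a median of 0.522 to 0.725 on C07. A05, A06, A09 and, by a smaller margin, A01 stood above every C chromosome, A08 (0.406) and A10 lay below every C chromosome, and the other A chromosomes lay within their range. These 3 chromosomes were singled out after their values were seen.

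**Figure D1:**
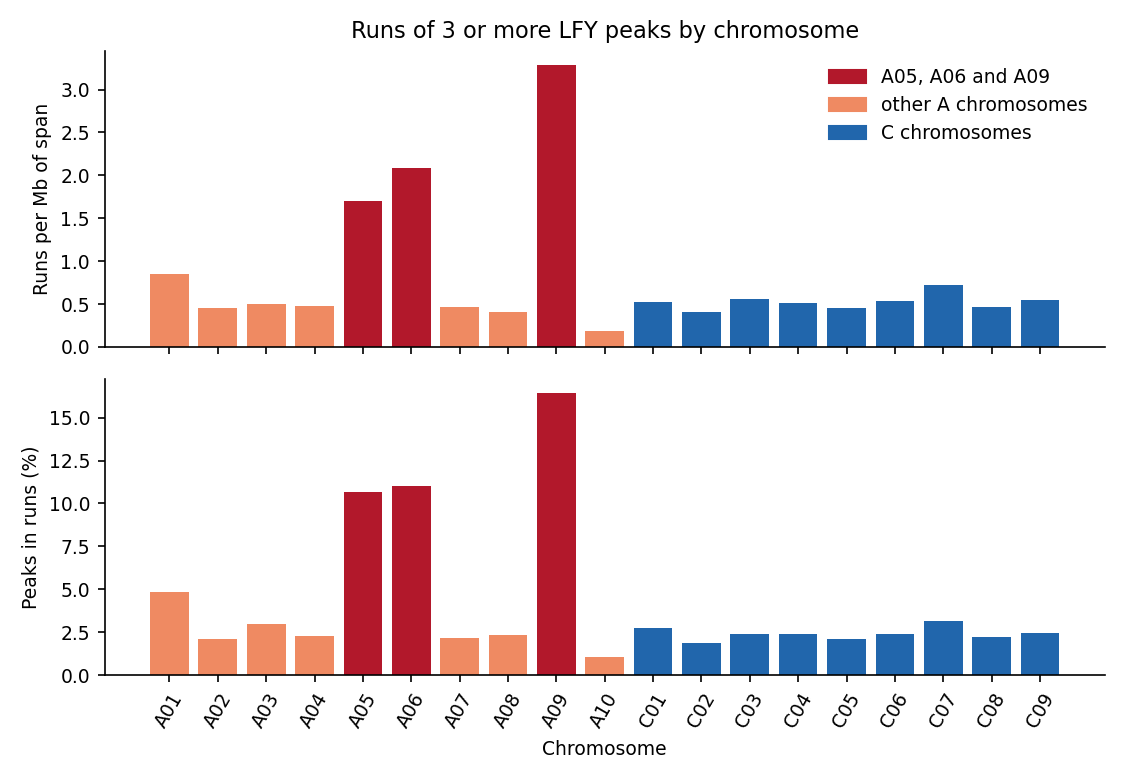
Runs of 3 or more peaks per Mb of chromosome span (top) and the percentage of a chromosome's peaks that lie in runs (bottom), 1 bar per chromosome. A09, A06 and A05 stand at 3.29, 2.08 and 1.70 runs per Mb, and all C chromosomes lie between 0.411 and 0.725.

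By subgenome, the density of runs was 1.04 ± 1.001 per Mb (SD, n = 10) on A and 0.526 ± 0.0890 per Mb (SD, n = 9) on C chromosomes. The percentage of peaks in runs was 5.59 ± 5.22 on A and 2.42 ± 0.367 on C chromosomes. Both are read from the positions that chose the members and are given with no test, as is the number of peaks per run. For the density and the percentage, the difference between the means was smaller than the SD of the A chromosomes. Without A05, A06 and A09 the density was 0.478 per Mb on A and 0.526 on C chromosomes, so that the direction turned, and the percentages were 2.55 and 2.42. For runs of 4 or more peaks the densities were 0.403 and 0.0434 per Mb.

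Long runs lay mostly on A chromosomes. Of 93 runs with 5 or more peaks, 84 lay on A05, A06 and A09, 7 on other A chromosomes and 2 on C chromosomes. On the C chromosomes 265 of 288 runs (92.0%) held 3 peaks, 21 held 4, and the longest 2 held 5 and 6. On A05, A06 and A09 only 52.8% of the runs held 3 peaks. The mean number of peaks per run was 3.46 ± 0.330 (SD, n = 10) on A and 3.10 ± 0.0728 (SD, n = 9) on C chromosomes. The difference was 0.360 with all chromosomes and 0.205 without A05, A06 and A09, and 0.197 with neighbours joined within 500 bp. The A chromosomes reached from 3 peaks per run on A10 to 3.98 on A09, and the C chromosomes from 3.02 on C03 to 3.28 on C01.

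Runs on A05, A06 and A09 were also longer, with shorter gaps between the edges of their peaks. Their median extent was 3316 bp, against 2451 bp on the other A chromosomes and 2394 bp on the C chromosomes. Their gaps had a median of 407 bp, against 501 and 567 bp. The centres of neighbouring peaks were not closer there, at 1048.5 bp apart at the median, against 970.5 and 976.25 bp. The peaks in these runs were broader, with a median width of 496.5 bp, against 380 and 378 bp. Their peaks covered 63.5% of a run at the median, against 53.7 and 52.2%. These values belong to the positions that chose the members and carry no test.

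The runs themselves lay near each other on A05, A06 and A09. The median distance from 1 run to the run before it on the same chromosome was 50.7 kb there, 908 kb on the other A chromosomes and 1180 kb on the C chromosomes. Of the distances on A05, A06 and A09, 62 of 391 (15.9%) were under 10 kb, against 7 of 104 (6.73%) on the other A chromosomes and 2 of 279 (0.717%) on the C chromosomes.

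**Figure D2:**
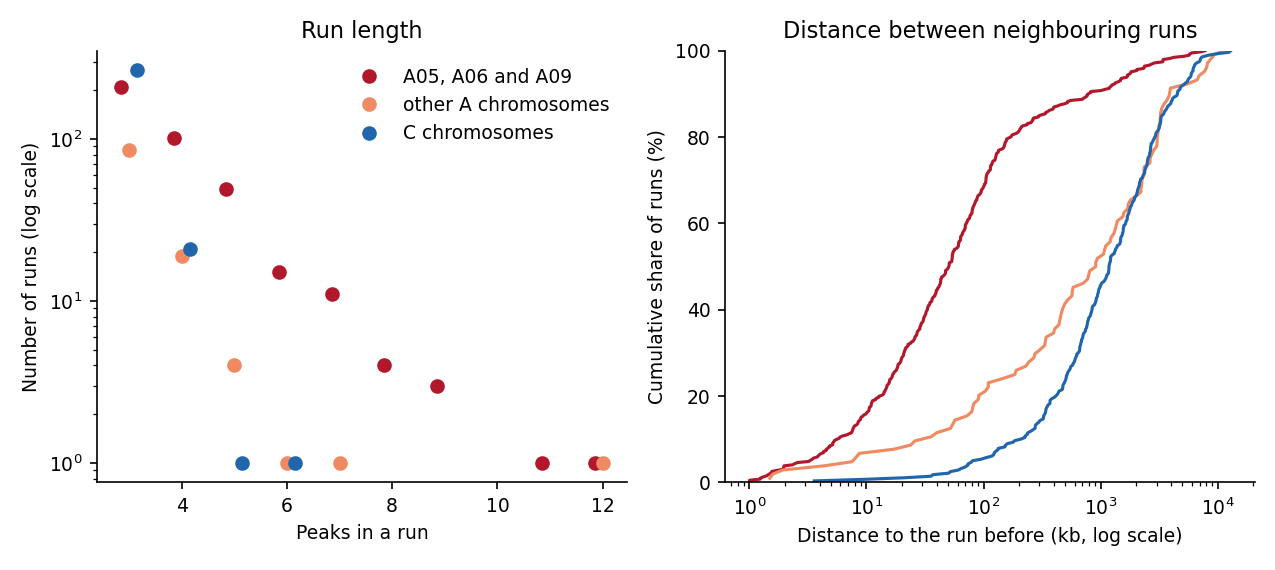
Left: number of runs (log scale) by the number of peaks in a run, for A05, A06 and A09, the other A chromosomes and the C chromosomes, where a missing point is a count of 0. Right: cumulative percentage of runs by the distance to the run before on the same chromosome (kb, log scale), with medians of 50.7, 908 and 1180 kb.

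Bins of 1 Mb with 5 or more runs joined into 13 zones, all on A chromosomes. These held 349 of the 793 runs (44.0%) in 33 Mb, beside a chromosome span of 933 Mb. The zones were chosen for many runs, so a high share of runs in them is partly fixed. No 1 Mb bin of a C chromosome held more than 3 runs. The largest zone, on A09 from 21 to 33 Mb, held 155 runs, or 12.9 per Mb, and 637 of its 1615 peaks (39.4%) lay in runs. A09 had further zones from 37 to 39 Mb with 22 runs, from 43 to 44 Mb with 17 and from 35 to 36 Mb with 5. On A06 the zones ran from 22 to 26 Mb with 42 runs, from 27 to 30 Mb with 29 and from 17 to 18 Mb with 5. On A05 they ran from 14 to 16 Mb with 19 runs, from 18 to 20 Mb with 17 and from 21 to 23 Mb with 19. Outside these 3 chromosomes, A01 had zones at 9 to 10 Mb (5 runs) and 17 to 18 Mb (9 runs), and A03 had 1 at 41 to 42 Mb (5 runs). The zones held 89.2% of the runs of A09 and 37.5% of its peaks.

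The number of peaks in a window counts the peaks of a run too, so a rise of runs with crowding is partly fixed by the rule, and the shares are set side by side for windows of like count. In windows of 100 kb with 5 to 9 peaks, 3.02% of the peaks on A05, A06 and A09 lay in runs, against 1.49% on the other A chromosomes and 1.82% on the C chromosomes. In windows with 10 to 14 peaks the shares were 9.77, 3.52 and 3.62%. In windows with 15 to 19 peaks, 448 of 1348 peaks (33.2%) on A05, A06 and A09 lay in runs, against 32 of 413 (7.75%) and 92 of 1391 (6.61%). In windows of 20 or more peaks the order turned, with 49.0% on A05, A06 and A09 and 61 of 98 peaks (62.2%) on the other A chromosomes. The C chromosomes had 24 peaks in such windows and 0 of them in runs. Of all runs, 169 (21.3%) touched a window of 20 or more peaks.

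The run with most peaks and the longest extent lay on A03 from 41277391 to 41292156 and held 12 peaks in 14766 bp. Its first 4 peaks were broad, at 1667, 1240, 1998 and 1760 bp, with folds of 12.5, 12.1, 18.7 and 12.9. The remaining peaks were 282 to 665 bp wide, with folds from 4.47 to 11.8. The 4 highest folds of this run were thus at its start, and the broadest peak was also the strongest.

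The other run of 12 peaks lay on A06 from 24059405 to 24072364. Its folds ran from 2.49 to 10.5 with a median of 7.87, and the lowest and the highest stood 2 peaks apart near its middle. A run of 11 peaks on A05, from 22224409 to 22233331, was made of narrow peaks of 242 to 549 bp. All but 1 of its peaks had folds between 3.45 and 7.11, and the exception, near its middle, had a fold of 12.1.

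The remaining 7 of the 10 runs with most peaks all lay on A09. Runs of 9 peaks stood from 23093395 to 23103994, from 29118135 to 29126419 and from 43419910 to 43427675, with median folds of 9.59, 5.60 and 5.81. Runs of 8 peaks stood from 22156505 to 22168930, from 24096292 to 24104694, from 25085868 to 25093160 and from 31734779 to 31741252, with median folds of 10.2, 6.33, 7.05 and 5.28. The run from 22156505 was the only 1 of these 7 with more than 1 fold of at least 16.1, and 6 of its 8 peaks were 800 bp or broader. None of the 10 longest runs held a peak of 20-fold or more, and their strongest peaks ranged from 8.04-fold to 18.7-fold.

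**Figure D3:**
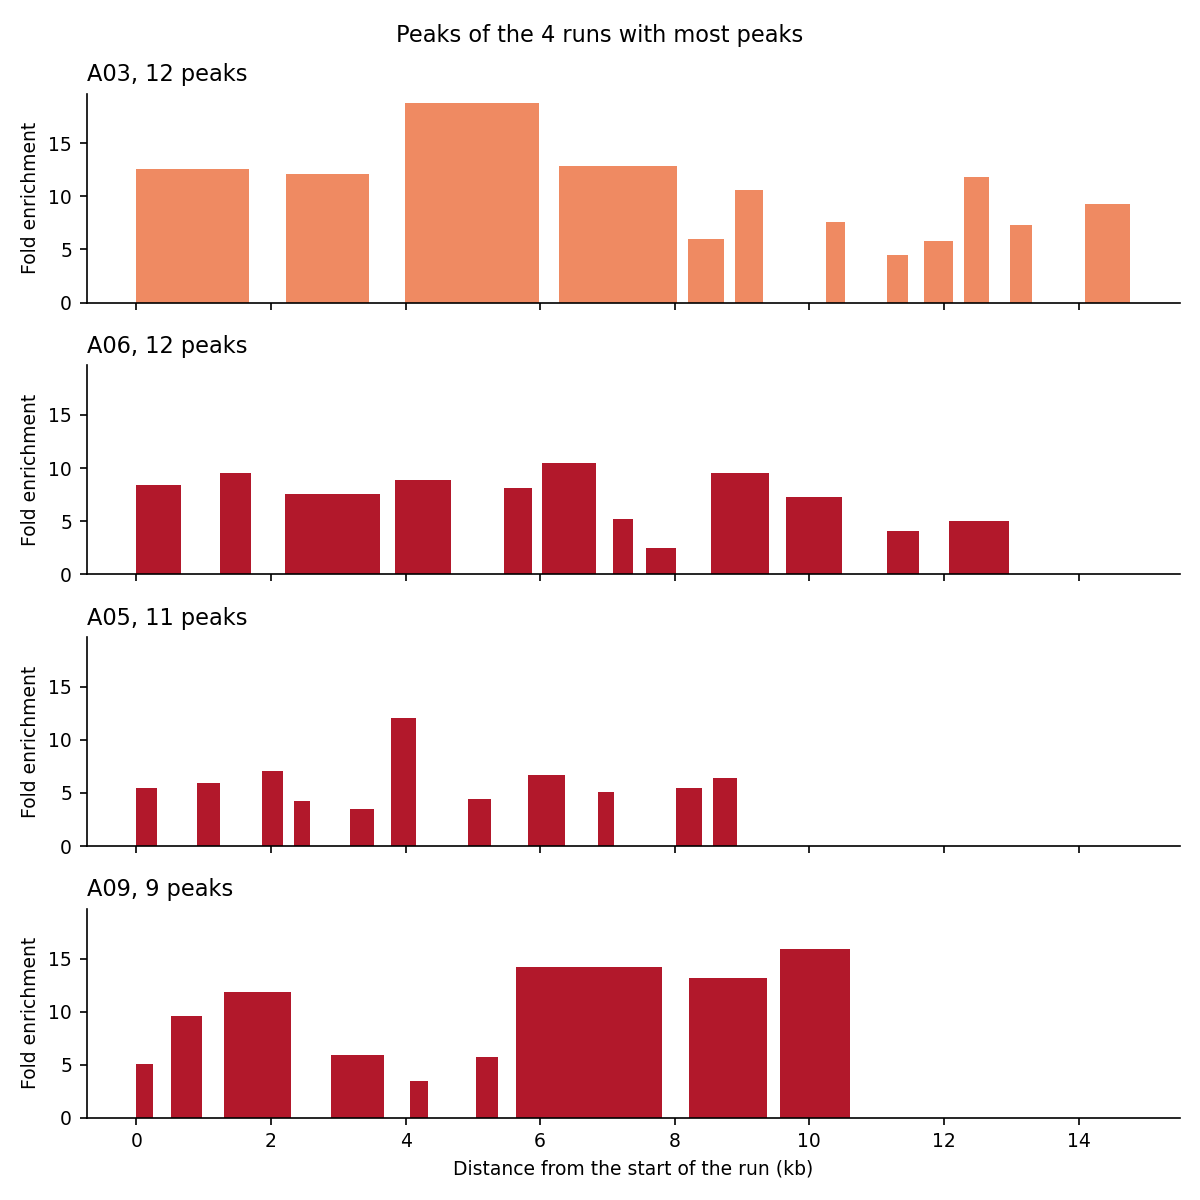
Fold enrichment (bar height) and width (bar width) of each peak in the 4 runs with most peaks, by distance from the start of the run in kb. The A03 run starts with 4 broad peaks of 12.1-fold to 18.7-fold, and the A05 run holds only peaks of 549 bp or less.

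Over all chromosomes together, folds within runs were close to those of single peaks at the median and lower at the top. The median fold was 6.31 (quartiles 4.85 and 9.12) for peaks in runs, 6.20 for peaks in pairs and 6.05 (quartiles 4.67 and 9.35) for single peaks. Fold comes from the same peak calls whose positions chose the members, so these are descriptions with no test. By chromosome, the median in runs exceeded that of single peaks on 12 of 19, with a mean difference of 0.229 ± 0.699 (SD, n = 19 chromosomes), which is smaller than the spread. The pooled difference, 0.264, was 0.0336 within classes of peaks per window and turned to -0.177 among peaks with a -log10 q of at least 10.

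Strong peaks, the 10% of chromosome peaks with a fold of at least 16.1, made up 192 of the 2792 peaks in runs (6.88%, 95% Wilson interval 5.996 to 7.88%), beside 10% of all chromosome peaks by construction. They made up 10.1% of single peaks (9.82 to 10.3%) and 10.5% of peaks in pairs (9.88 to 11.1%). In runs of 3 the share was 8.30% (7.08 to 9.72%), in runs of 4 it was 4.75% (3.29 to 6.83%), and in runs of 5 or more 4.73% (3.25 to 6.84%). Run length went with chromosome: the C chromosomes held 265 of the 558 runs of 3 but 2 of the 93 runs of 5 or more. The shares by run length were not split by chromosome, so the part of run length in them was not tested. The intervals cover counting error only, and peaks of 1 run share their surroundings. The share was lower in runs than among single peaks on 15 of 19 chromosomes, by -2.48 ± 3.18 percentage points on average (SD, n = 19). The 4 chromosomes with a higher share in runs were A03, C02, C04 and C09. On A05, A06 and A09 the share was 5.24% in runs (4.23 to 6.48%) and 8.46% of single peaks, and on the other A chromosomes 5.85% (3.90 to 8.70%) and 8.88%. On the C chromosomes the shares were 10.1% in runs (8.30 to 12.3%) and 10.97% of single peaks, and folds of at least 30 were reached by 3.03 and 2.63%. By C chromosome the share in runs minus that of single peaks went both ways, from -4.31 points on C08 to 2.11 on C02. Of 158 chromosome peaks with a fold of at least 50, 2 lay in runs (1.27%) and 21 in pairs, where 4.48% of all chromosome peaks lie in runs and 15.1% in pairs. At the weak end, 10.7% of the peaks in runs and 12.0% of single peaks had a fold under 4.

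Peaks in runs were broader than single peaks. Their median width was 421 bp, against 378 bp in pairs and 362 bp for single peaks, and it rose from 398 bp in runs of 3 to 458 bp in runs of 4 and 499 bp in longer runs. Peaks of 800 bp or more made up 421 of the 2792 peaks in runs (15.1%), beside 3.18% of all chromosome peaks, and 2.28% of single peaks. On A05, A06 and A09 the share in runs was 23.3%, on the other A chromosomes 9.04% and on the C chromosomes 3.60%, against 3.47, 1.72 and 2.19% of the single peaks of the same chromosomes. At least 1 such broad peak was present in 274 runs (34.6%). Width enters the rule, since a broader peak leaves less distance to its neighbours. Judged by the digits of the deposited values, 73.4% of peaks in runs and 66.1% of single peaks had values averaged from several peak calls.

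Among peaks of 500 bp or more, those in runs had lower folds than single peaks over all chromosomes together. Between 500 and 800 bp the median fold was 7.53 in runs (597 peaks) and 12.1 among single peaks (6982 peaks), and strong peaks made up 13.4 and 37.1%. From 800 bp upwards the medians were 8.62 (421 peaks) and 12.6 (1141 peaks). These pooled groups differ in their chromosomes. At this width 355 of the peaks in runs lay on A05, A06 and A09. Of the single peaks, 667 lay on C chromosomes. Under 300 bp, the medians were nearly equal, at 4.62 and 4.60. On 17 of 19 chromosomes the median fold of peaks of at least 500 bp was lower in runs, by -2.33 ± 1.90 on average (SD, n = 19), and C03 and C07 were the exceptions. A10 contributed 1 such peak in a run. On A05, A06 and A09 the medians at 500 to 800 bp were 7.03 in runs and 9.67 among single peaks, on the other A chromosomes 7.74 and 11.2, and on the C chromosomes 10.97 and 13.04. From 800 bp upwards the medians were 8.27 in runs and 9.38 among single peaks on A05, A06 and A09. On the other A chromosomes they were 12.2 (34 peaks in runs) and 13.3. The C chromosomes went the other way, with 15.7 in runs (32 peaks) and 13.8 among single peaks. Weighted by the widths of the peaks in runs, the difference in median fold over all widths was -1.89, against 0.264 without regard to width. This weighting was chosen after the data were seen, and it pools all chromosomes.

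**Figure D4:**
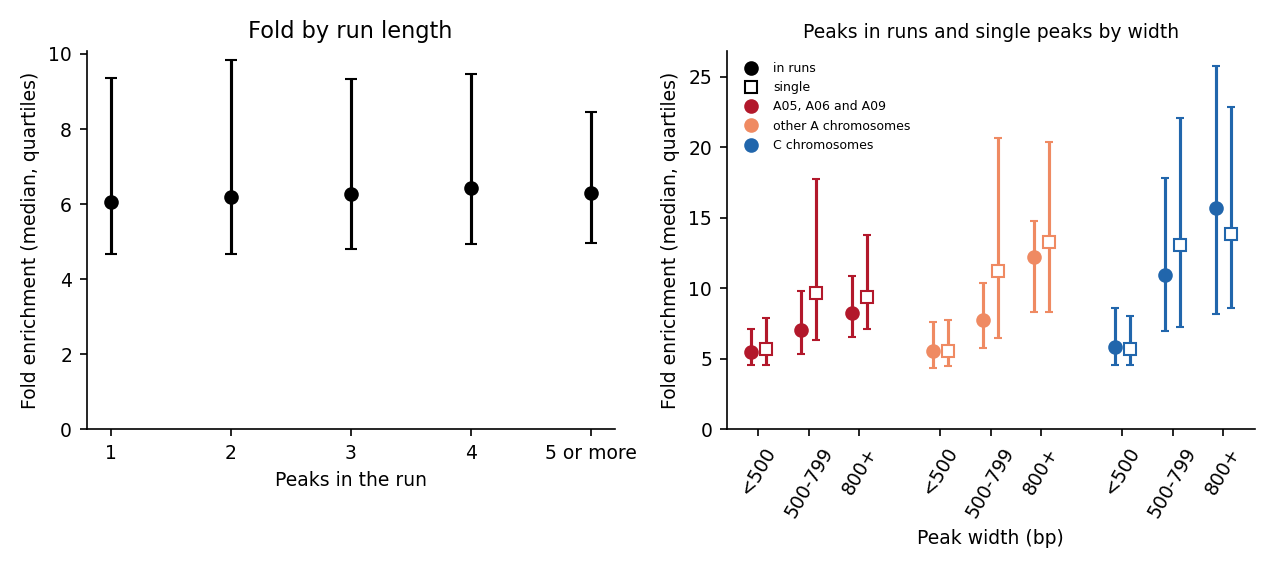
Left: median fold enrichment with quartiles by the number of peaks in the run, from 6.05 for single peaks to 6.42 in runs of 4. Right: median fold with quartiles for peaks in runs (filled circles) and single peaks (open squares) by width in bp, for A05, A06 and A09 (left group), the other A chromosomes (middle) and the C chromosomes (right); between 500 and 800 bp the circles lie below the squares in all groups.

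The share of strong peaks in runs differed between the subgenomes, which the rule did not use, and so did the share among single peaks. The test permuted the 19 chromosomes (exact, two-sided, on means), with Benjamini-Hochberg adjustment over the 6 chromosome measures computed. Strong peaks made up 4.94 ± 3.25% of the peaks in runs of A chromosomes (SD, n = 10) and 10.01 ± 2.41% of those of C chromosomes (SD, n = 9), and the difference of -5.07 percentage points passed (exact permutation p = 0.00121, adjusted p = 0.00727). The A chromosomes ranged from 0% on A08 (37 peaks in runs) and A10 (15 peaks) to 9.52% on A03, and the C chromosomes from 6.76% on C08 to 13.3% on C02, so the groups overlapped. Among single peaks the share was lower on A chromosomes too, from 8.01% on A03 to 9.92% on A07. On C chromosomes it ran from 10.4% on C06 to 11.2% on C09, so the groups did not overlap among single peaks. The same direction over all peaks was known before, so the direction in runs is not independent of it, and the p-value shows nothing particular to runs. Whether this share differed more between the subgenomes in runs than among single peaks was not tested. With neighbours joined within 500 bp the difference was larger, -6.01 points, but did not pass (exact permutation p = 0.0651), and the same held once peaks under a -log10 q of 10 were left out (-7.26 points, exact permutation p = 0.166).

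The median fold of peaks in runs was 6.11 ± 0.685 on A (SD, n = 10) and 6.40 ± 0.778 on C chromosomes (SD, n = 9), which did not pass (exact permutation p = 0.420, adjusted p = 0.504). The difference in median fold between peaks in runs and single peaks was 0.200 ± 0.661 on A and 0.260 ± 0.779 on C chromosomes, and this contrast between subgenomes did not pass (exact permutation p = 0.870, adjusted p = 0.870). Among the C chromosomes C09 stood highest in both measures. The median fold of its 108 peaks in runs was 8.40, a difference of 2.27 from that of its single peaks (6.13).

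**Figure D5:**
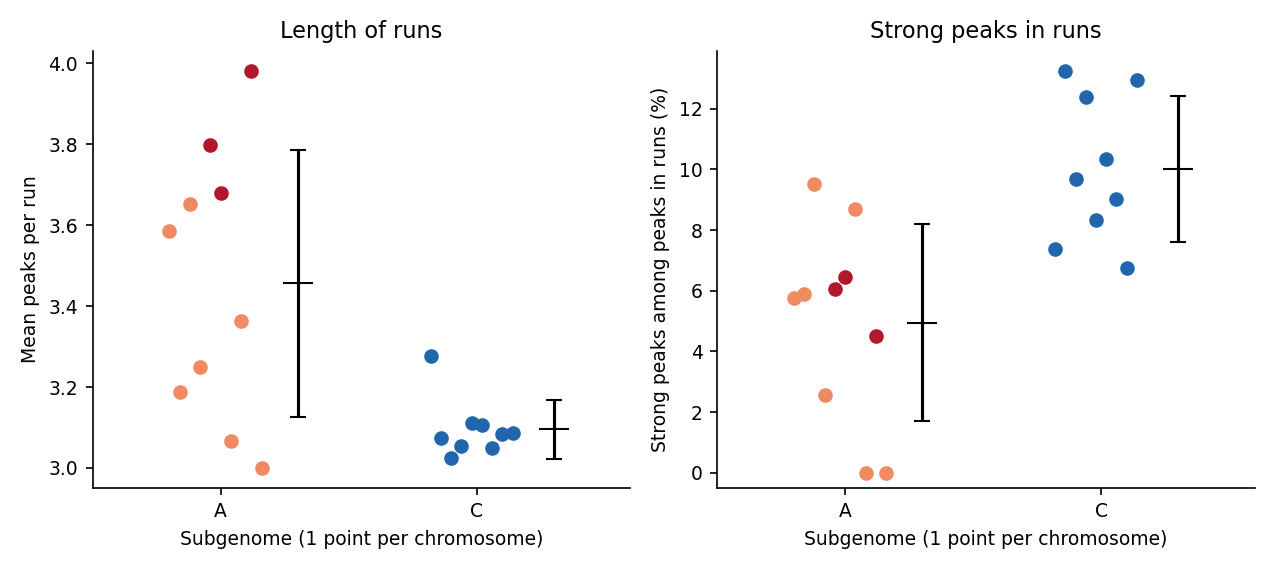
Mean number of peaks per run (left) and percentage of strong peaks among peaks in runs (right), 1 point per chromosome, with A05, A06 and A09 in dark red, the other A chromosomes in orange, the C chromosomes in blue and the mean with SD in black. A chromosomes average 3.46 peaks per run and C chromosomes 3.10, and strong peaks average 4.94 and 10.01%.

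The strongest peak of a run had 2.14 times the fold of the weakest at the median, with quartiles of 1.64 and 3.06 and a highest ratio of 11.8. This ratio cannot be below 1, and its median was 2.02 in runs of 3, 2.26 in runs of 4 and 2.49 in longer runs. It was not compared with sets of single peaks, whose folds had quartiles of 4.67 and 9.35. At least 1 strong peak was present in 165 runs (20.8%), and of these 142 held 1, 19 held 2 and 4 held 3. A single run consisted of strong peaks only. Runs with a strong peak made up 26.4% of the runs on C chromosomes, 17.8% on A05, A06 and A09 and 17.1% on the other A chromosomes. The groups differed in run length, with 92.0, 52.8 and 76.6% of their runs, in that order, holding 3 peaks. A longer run has more peaks that can be strong, and none of these shares was compared with sets of single peaks. In runs of 3 the strongest peak was the first in 205, the last in 195 and the middle peak in 158 of 558 runs. In runs of 4 the strongest was an inner peak in 71 of 142 runs, where inner peaks are 50% of the places. In runs of 5 or more it was an inner peak in 52 of 93 runs (55.9%), where inner peaks are 66.2% of the places. The median folds of the first, middle and last peak in runs of 3 were 6.40, 6.15 and 6.25.

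The 5 runs with the strongest peaks were all runs of 3, which make up 70.4% of all runs. Most of the 5 lay on C chromosomes, which hold 265 of the 558 runs of 3. The run made of strong peaks only was on C03, from 36557534 to 36559864. Its middle peak, 937 bp wide, had a fold of 55.8, the highest of any peak in a run, and its flanking peaks had folds of 18.6 and 25.4. On C07, from 46845588 to 46848511, folds of 10.2, 52.3 and 33.5 followed each other. On A05, from 4403595 to 4406650, the folds were 13.1, 47.6 and 20.2. A run on C09, from 10865155 to 10867392, differed from these in that a peak of 45.8-fold and 941 bp stood between narrow peaks of 5.12-fold and 4.72-fold. On C03 from 62447325 to 62450935, a peak of 45.3-fold was followed by a peak of 30.7-fold and 1407 bp and by one of 5.67-fold.

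The run of highest median fold, 33.6, lay on C02 from 58470205 to 58472830. Its outer peaks had folds of 33.6 and 38.6 and the peak between them 7.26. It was followed in median fold by the C07 run (33.5), the C03 runs from 62447325 (30.7) and from 36557534 (25.4), and a second run on A05, from 4707310 to 4710252 (24.0). The last had folds of 4.06, 24.0 and 26.4. No zone of many runs lay on a C chromosome, so the strong runs there could not lie in one. The A05 runs from 4403595 and from 4707310 lay outside the zones of A05. These zones, chosen for many runs, held 74.3% of the runs of that chromosome and 21.0% of its peaks. The longest runs did not hold the strongest peaks, and run length was not separated from chromosome here.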

How the data were processed

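Data were 2 DAP libraries and 1 input library. The tools named are HOMER, MACS2, SAMtools, Bowtie2 and fastp, per the submitters' processing notes. Their versions and settings, and how replicates were combined, were not given in the sources used here. What the authors deposited is 1 headerless peak list of 7 columns, in which each interval has a score, a fold (a ratio of signal to background) and 2 significance values, the -log10 of a p-value and of a q-value. These units were read from the values and the column order. The deposited starts were taken as counted from 0. Read totals are not in the list, so the depth is unknown and no interval from read counts is given.

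Peaks on the 19 chromosomes were sorted and joined by edge distance (Python 3.11.15, pandas 2.3.3, numpy 2.4.6, scipy 1.17.1), and scripts were checked on simulated data. Values were taken as averaged from several peak calls where the score was no whole number or any other value ran past 6 significant digits. Wilson intervals are at 95%. Fold measures of the subgenomes were compared over all 92378 splits of the 19 chromosomes, and p-values measure the spread between chromosomes, which are not replicate libraries. Named runs are the 10 with most peaks, the 5 with the strongest peak, the longest and the 5 of highest median fold. The members, measures and tests were chosen with earlier results of these data known. Alternatives changed the joining distance, the minimum run length, the minimum -log10 q and the chromosomes, windows or widths used.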

Additional observations from a re-analysis of the deposited data

Results flagged for a closer look

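Dixon's test was applied to the 6 chromosome measures in the A and the C subgenome, 12 groups in all, and about 1 group in 20 is expected to pass it by chance. C07 stood above the other C chromosomes in runs per Mb (0.725), and C01 in peaks per run (3.28). C09 stood apart in the median fold of its peaks in runs (8.40, with the next C chromosome, C03, at 6.44) and in its difference from single peaks (2.27). No A chromosome passed this test in any of the 6 measures. On unplaced scaffolds, which entered no comparison, the same joining rule gave 8 runs with 25 of the 635 peaks.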

How the results depend on the processing

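The number of runs followed the rule: 286 with neighbours within 500 bp, 1902 within 2000 bp, 177 from a -log10 q of 10 upwards, 235 with at least 4 peaks and 399 without A05, A06 and A09 (an alternative added after seeing the data), against 793. For runs per Mb, A minus C was 0.516, and it was 0.360 with at least 4 peaks, -0.0477 without A05, A06 and A09, and 0.266 to 0.610 with each chromosome left out in turn. For the percentage of peaks in runs it was 3.17, and it was 2.48 with at least 4 peaks, 1.67 without windows of 20 or more peaks, 0.123 without A05, A06 and A09, and 1.96 to 3.67 with a chromosome left out. Within 500 bp, the difference in peaks per run fell to 0.197, while that in strong peaks grew to -6.01 points but did not pass, and from a -log10 q of 10 upwards it was -7.26 and did not pass either. Within 2000 bp the difference in median fold passed (-0.317). From a -log10 q of 5 upwards, the difference between subgenomes in runs minus single peaks turned to 0.0802. The pooled median fold of runs minus single peaks, 0.264, was 0.157 without windows of 20 or more peaks, 0.0336 within classes of peaks per window and 0.0290 with centres within 1500 bp. It turned to -0.177 at a -log10 q of at least 10, to -0.0349 among peaks narrower than the median width, to -0.143 among peaks with averaged values and to -1.89 within classes of width (added after seeing the data). The difference in strong share, -3.21 points, shrank to -1.54 without A05, A06 and A09, to -2.05 within classes of peaks per window and to -1.89 within 2000 bp. It was -5.34 with at least 4 peaks and likewise with averaged values, -6.52 at a -log10 q of at least 10, -10.0 within classes of width and 0.0761 among narrow peaks, where strong peaks are nearly absent. The causes were not tested. The p-values behind these calls are unadjusted. No analysis paired by library was possible because the list carries no value per library. Corresponding (homoeologous) A and C chromosomes were not paired in the permutation tests. Without read totals, the precision of a single fold is unknown.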
